A study of Mus musculus with 6 samples.

Results

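Gpnmb, Spp1, Cd44 and the galectins are 8 genes of a glycoprotein and lectin system that phagocytes, reactive glia and matrix cells use to bind sugars, matrix and each other. The 8 were taken by gene name from the 26554 features that every library lists, and each name matched 1 row. They were selected on earlier results of the same comparison, that is, on their read counts in collagenase against saline libraries, so their differences between these groups, and whether the fit across all features called them, are given below as a description that supports nothing by itself. All 8 had counts enough to enter the fit across 17240 features.

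The study models central post-stroke pain by a small bleed in the VPL/VPM, a pair of thalamic nuclei that pass touch and pain signals to the cortex, and sequenced polyA RNA of this tissue from WT (wild-type) C57 mice. The 3 collagenase libraries came from mice that had 0.01 U of type IV collagenase, which breaks down vessel basement membrane, placed in 10 nL on the right side 14 days earlier. The 3 saline libraries came from mice that received 10 nL of saline at the same site and were sampled after the same time. The labels give no age or sex and do not say whether a library holds 1 animal or several, so the spread between libraries may be technical, and no uninjected tissue was analysed here.

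Gpnmb is a type I membrane glycoprotein of phagocytes laden with lipid or debris, and its ectodomain is shed and can bind integrins and syndecan. Spp1 encodes osteopontin, a secreted phosphoprotein that binds integrins through an RGD tripeptide and also binds CD44. Cd44 encodes the main cell-surface receptor for hyaluronan and anchors the membrane to the actin cytoskeleton through ezrin, radixin and moesin. Galectins are lectins for beta-galactosides that leave the cell without a signal peptide; inside the cell several of them mark damaged endosomes and lysosomes. In injured brain, Gpnmb, Spp1 and Lgals3 are known from phagocytic microglia and macrophages and Cd44 and Lgals1 also from reactive astrocytes, while Lgals9 and Lgals3bp are known as interferon-inducible.

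Total counts ran from 36463551 to 44815451 in collagenase libraries and from 33603076 to 44363142 in saline libraries. The summed CPM (counts scaled to library size with TMM factors) of 8 microglial markers was 369.0 to 500.0 in collagenase and 233.4 to 251.3 in saline libraries, and 3 of the 8 rose. For 9 markers of monocytes and border macrophages the sums were 20.3 to 32.2 CPM in collagenase and 11.0 to 15.3 CPM in saline libraries, with 1 rise, and for 8 of neutrophils 1.40 to 3.55 CPM in collagenase and 0.264 to 0.721 CPM in saline libraries, with Camp at 0 counts throughout and 1 rise, Mmp8, among 3 tested. The 7 measured T and NK cell markers summed to 3.86 to 11.2 CPM in collagenase and 0.524 to 13.1 CPM in saline libraries, and 4 of 5 tested rose; Cd3d, Cd3e, Cd3g, Cd8a and Nkg7 had 0 counts in saline libraries. The 8 astrocyte markers summed to 4275.8 to 4696.4 CPM in collagenase and 3497.1 to 3809.4 CPM in saline libraries, and the 8 fibroblast and meningeal markers to 279.6 to 322.7 CPM in collagenase and 123.0 to 257.1 CPM in saline libraries; 2 of the astrocyte and 3 of the fibroblast markers rose. The 8 markers of relay and other neurons summed to 4040.2 to 4732.8 CPM in collagenase and 4707.4 to 6468.4 CPM in saline libraries. Of them 0 passed edgeR's test or that of DESeq2, with 2 at an unadjusted p under 0.05. In tissue RNA, a change in the number of cells of a type and a change in RNA per cell cannot be told apart, and the part of these marker changes in the values below was not tested.

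Of the 8 genes, 4 were called higher and 1 lower in collagenase libraries by edgeR's quasi-likelihood test at an adjusted p under 0.05, and 3 were not called. Across all 17240 features the same rule called 2.41%, of which 2.12% of features were higher and 0.29% lower. The CPM of collagenase and saline libraries did not overlap for 7 of the 8 genes, against 17.6% of all features. Since the genes were chosen on this comparison, nothing is read from these counts. The median log2 fold change of the 8 was 1.32, beside -0.02 over all features tested. Without saline replicate 1 the number of the 8 called was 3, with Spp1 and Lgals9 no longer called.

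**Figure D1:**
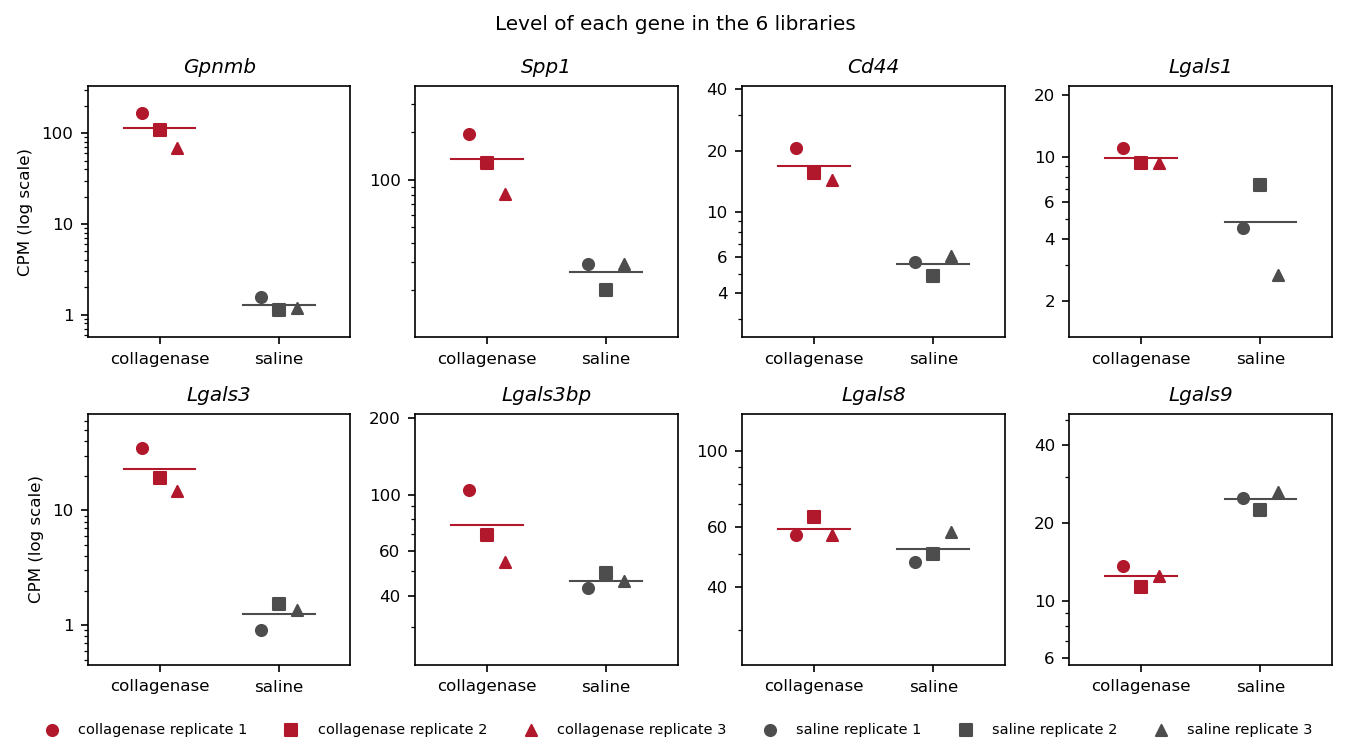
Level of each of the 8 genes in CPM (TMM scale, logarithmic axis) in the 3 collagenase libraries (red, left) and the 3 saline libraries (grey, right); a horizontal line marks each group's mean. Gpnmb and Lgals3 are separated the furthest, the groups of Lgals8 overlap, and the collagenase libraries of Lgals9 lie below the saline libraries.

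Gpnmb (ENSMUSG00000029816, chromosome 6, 49036546 to 49070929, plus strand, GRCm38) measured 166.3, 108.7 and 68.7 CPM in collagenase replicates 1, 2 and 3, against 1.58, 1.13 and 1.17 CPM in saline replicates 1, 2 and 3. Its raw counts were 7917, 4044 and 2651 in collagenase and 70, 39 and 40 in saline libraries. The lowest collagenase library thus stood far above the highest saline library, while the collagenase libraries differed among themselves 2.42-fold. The fitted log2 fold change was 6.45 with a standard error (SE) of 0.39, and 27 of the 17240 features had a larger one. By deposited FPKM, which corrects for length, the gene was the third highest of the 8 in collagenase libraries, at 30.6 ± 14.3 FPKM, and the lowest in saline libraries, at 0.329 ± 0.0715 FPKM (SD, n = 3 per group). Among all 17240 features its mean FPKM ranked 2234 in collagenase and 15400 in saline libraries, counted from the highest.

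Spp1 (ENSMUSG00000029304, chromosome 5, 104435118 to 104441050, plus strand) measured 196.1, 127.9 and 81.7 CPM in collagenase replicates 1, 2 and 3, against 29.2, 20.2 and 29.2 CPM in saline replicates. Unlike Gpnmb, it was already well expressed after saline, and its groups did not overlap. Its log2 fold change was 2.37 (SE 0.33), with values from 2.00 to 2.63 when 1 library was removed. Spp1 was called in 2 of those 6 fits, and not without collagenase replicate 2 or any single saline replicate. At 93.6 ± 43.3 FPKM it was the most abundant of the 8 per length in collagenase libraries, against 16.6 ± 2.88 FPKM in saline libraries (SD, n = 3 per group), with ranks among all features of 580 in collagenase and 4056 in saline libraries.

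Cd44 (ENSMUSG00000005087, chromosome 2, 102811141 to 102901665, minus strand) was the least abundant of the 8 per length in collagenase libraries. It measured 20.7, 15.6 and 14.3 CPM in collagenase replicates 1, 2 and 3, against 5.70, 4.89 and 6.07 CPM in saline replicates. The libraries of the groups were apart, with a 1.45-fold range within collagenase and a 1.24-fold range within saline libraries. This corresponds to a log2 fold change of 1.60 (SE 0.18), and Cd44 was called in each of the 6 fits with 1 library removed.

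Lgals3 (ENSMUSG00000050335, chromosome 14, 47367751 to 47386160, plus strand), which encodes the galectin with a long proline- and glycine-rich tail, measured 34.8, 19.2 and 14.7 CPM in collagenase replicates 1, 2 and 3. In saline replicates it measured 0.901, 1.54 and 1.35 CPM, from 40, 53 and 46 counts. Its log2 fold change was 4.19 (SE 0.38), the second largest of the 8. By mean FPKM it ranked 4067 among all features in collagenase and 13369 in saline libraries. Its highest collagenase library was again replicate 1, while its highest saline library was replicate 2.

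Lgals1 (ENSMUSG00000068220, chromosome 15, 78926725 to 78930465, plus strand), a small galectin that acts as a dimer, measured 11.0, 9.27 and 9.33 CPM in collagenase replicates, against 4.51, 7.33 and 2.67 CPM in saline replicates 1, 2 and 3. Here the saline libraries were the more spread, over a 2.75-fold range, and the collagenase libraries lay within 1.19-fold of each other. A log2 fold change of 1.03 was fitted, with a 95% interval of 0.29 to 1.77. The gene was not called, although the groups did not overlap. The summed fibroblast and meningeal markers measured 322.7, 310.2 and 279.6 CPM in collagenase replicates 1, 2 and 3, against 151.2, 257.1 and 123.0 CPM in saline replicates. The summed endothelial markers measured 339.9, 329.9 and 354.2 CPM in collagenase and 363.7, 368.2 and 329.4 CPM in saline replicates. Both sums had the order of Lgals1 among saline libraries and neither had it among collagenase libraries, and their part in its level was not tested. They were picked from the sums of 9 marker lists with the values known, and the other lists had another order among saline libraries.

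Lgals3bp (ENSMUSG00000033880, chromosome 11, 118392751 to 118402092, minus strand), a secreted glycoprotein that binds galectin-3, measured 104.0, 69.0 and 54.3 CPM in collagenase replicates 1, 2 and 3, against 42.7, 49.0 and 45.7 CPM in saline replicates. Collagenase replicate 1 was the highest library and replicate 3 stood close to the saline libraries. Its fitted log2 fold change, 0.73 with a 95% interval of 0.23 to 1.22, was not called. Without collagenase replicate 1 it was 0.43.

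Lgals8 (ENSMUSG00000057554, chromosome 13, 12439415 to 12464944, minus strand), a galectin with a pair of sugar-binding domains that marks damaged vesicles, measured 56.7, 64.1 and 57.0 CPM in collagenase replicates, against 47.6, 50.0 and 58.2 CPM in saline replicates. The groups overlapped by the value of saline replicate 3. The log2 fold change was 0.19 with a 95% interval of -0.07 to 0.45, so that the interval holds 0 as well as small rises. The gene shares its locus with Heatr1 on the opposite strand (log2 fold change 0.05). The library protocol in the labels names no step that marks strand, and reads of the overlapping parts cannot be told apart. Among the other members, Spp1 overlaps the annotated locus Gm42793 on the same strand, and Cd44 the snRNA gene Gm23731 on the opposite strand.

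Lgals9 (ENSMUSG00000001123, chromosome 11, 78962974 to 78984946, minus strand), the other galectin here with a pair of sugar-binding domains and a ligand of the inhibitory receptor Tim-3, was the only one of the 8 that was lower in collagenase libraries. It measured 13.6, 11.3 and 12.5 CPM in collagenase replicates, against 25.0, 22.5 and 26.4 CPM in saline replicates 1, 2 and 3. The range was 1.20-fold within collagenase and 1.17-fold within saline libraries, and the groups did not overlap. Lgals9 had a log2 fold change of -0.98 (SE 0.12), which is 1.97-fold lower in collagenase libraries, and it ran from -1.05 to -0.92 with 1 library removed. The call ended without saline replicate 1.

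**Figure D2:**
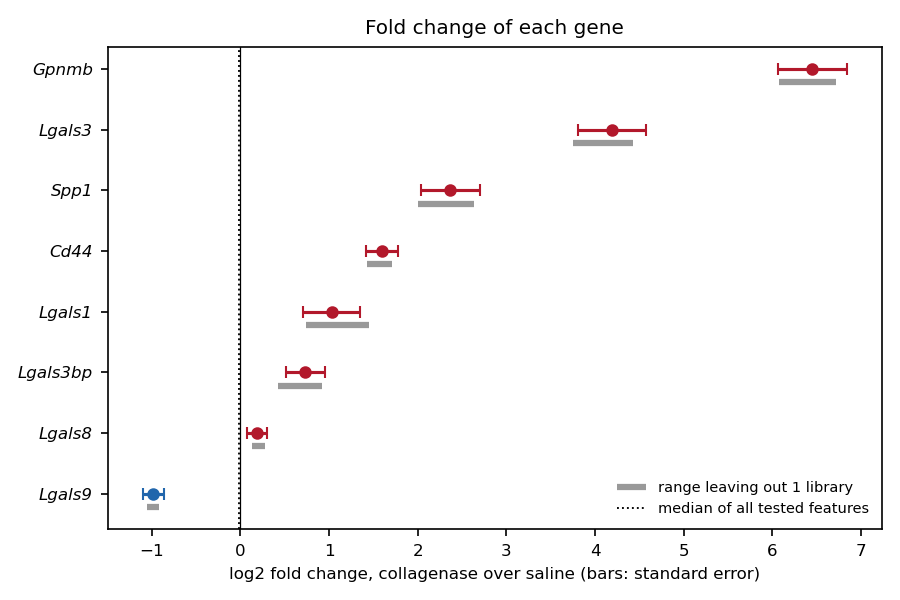
Fitted log2 fold change of collagenase over saline for each of the 8 genes, with its standard error (coloured bars) and the range over the 6 fits with 1 library removed (grey). Gpnmb is highest at 6.45 and Lgals9 lowest at -0.98, and none of the grey bars crosses 0.

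Within the collagenase group, replicate 1 was the highest library for 7 of the 8 genes, the exception being Lgals8. Among all tested features replicate 1 was the highest collagenase library for 34.6%, and among the 366 features called higher for 88.8%. Gpnmb, Spp1 and Lgals3 had nearly the same range between their highest and lowest collagenase library, at 2.42-fold, 2.40-fold and 2.37-fold. Lgals3bp followed with 1.92-fold and Cd44 with 1.45-fold, while Lgals1, Lgals8 and Lgals9 stayed within 1.20-fold. The summed microglial markers also stood highest in replicate 1, at 500.0, 430.5 and 369.0 CPM in collagenase replicates 1, 2 and 3. This was not particular to microglia. Summed markers of monocytes and border macrophages, T and NK cells, astrocytes, and fibroblasts and meninges were highest in replicate 1 as well. Those of neutrophils, oligodendrocytes, endothelial cells and neurons were highest in another collagenase replicate.

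Per length, by deposited FPKM, the order of mean levels in collagenase libraries was Spp1, Lgals3bp, Gpnmb, Lgals8, Lgals3, Lgals1, Lgals9 and Cd44. The library ranges of each gene and the next in this order overlapped from Spp1 down to Lgals1, so that such neighbours did not differ beyond their spread, although Spp1 exceeded Lgals3bp and Lgals3bp exceeded Gpnmb in 3 of 3 libraries. Genes further apart in the order could be separate: Spp1, at 54.6 to 140.1 FPKM, lay wholly above Gpnmb, at 17.7 to 45.9 FPKM. Lgals1 and Lgals9, and Lgals9 and Cd44, did not overlap. In saline libraries the order was Lgals3bp, Lgals8, Spp1, Lgals9, Lgals1, Cd44, Lgals3 and Gpnmb. There the ranges of Lgals8, Spp1 and Lgals9 overlapped between neighbours, as did those of Cd44 and Lgals3, and the other neighbours were apart.

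Among the 4 galectins the largest differences in share of their summed FPKM were those of Lgals3 and Lgals9. The sum was 58.2 ± 11.1 in collagenase and 38.7 ± 2.62 in saline libraries (SD, n = 3 per group). Lgals3 made up 28.1% ± 8.75 of that sum in collagenase libraries, against 2.29% ± 0.513 in saline libraries. Lgals9 made up 13.9% ± 1.71 in collagenase and 38.3% ± 3.79 in saline libraries. Lgals8 was the largest share in each group on average, at 37.1% ± 6.66 and 45.2% ± 3.83 in collagenase and saline libraries, and Lgals1 made up 20.9% ± 1.35 in collagenase and 14.3% ± 6.64 in saline libraries.

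**Figure D3:**
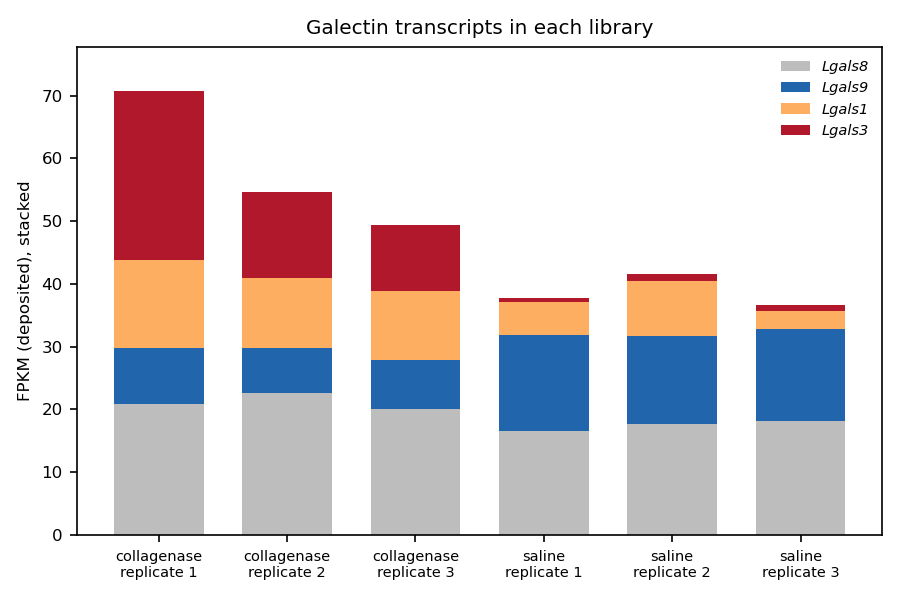
Deposited FPKM of Lgals8, Lgals9, Lgals1 and Lgals3 stacked for each library, collagenase libraries on the left and saline libraries on the right. The Lgals3 segment is 10.5 to 26.8 FPKM in collagenase libraries and 0.650 to 1.13 FPKM in saline libraries, and the Lgals9 segment is smaller in each collagenase library than in any saline library.

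Counts and FPKM stood in a nearly fixed ratio for 6 of the 8 genes, and in a varying one for Cd44 and Lgals3bp. The CPM of a gene, here without TMM scaling, divided by its FPKM is close to the transcript length, in kilobases, that the deposited FPKM used. After division by each library's median ratio, this quotient varied by 1.02-fold between libraries for the median of 14928 genes with at least 20 counts in each library. It varied by 1.25-fold for Cd44 and by 1.46-fold for Lgals3bp, which stood at the 95.1th and the 98.4th percentile of those genes, and by at most 1.04-fold for the other members.

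For Cd44, which has 9 annotated transcripts of 1305 to 5614 bases that differ in variable exons, the quotient was 4.73, 4.78 and 5.48 in collagenase replicates 1, 2 and 3, against 4.97, 6.01 and 5.91 in saline replicates. The groups overlapped by saline replicate 1. For Lgals3bp it was 1.67, 1.65 and 2.37 in collagenase replicates, against 2.11, 1.84 and 1.83 in saline replicates, with the highest value in collagenase replicate 3. The FPKM of Lgals3bp therefore overlapped between groups, at 66.3, 42.8 and 22.9 in collagenase and 20.2, 27.2 and 22.3 in saline libraries, where its CPM did not. Lgals8 differed between scales without such a shift, as its quotient was 2.86 to 2.90 in all libraries. Its FPKM, 21.1 ± 1.33 in collagenase and 17.4 ± 0.815 in saline libraries (SD, n = 3 per group), did not overlap. Its CPM did overlap, on the TMM scale, where saline replicate 3 has a factor of 0.898. The deposited FPKM of Lgals8 tracked its unscaled CPM. Which transcripts the libraries held was not tested, since the values are per gene.

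**Figure D4:**
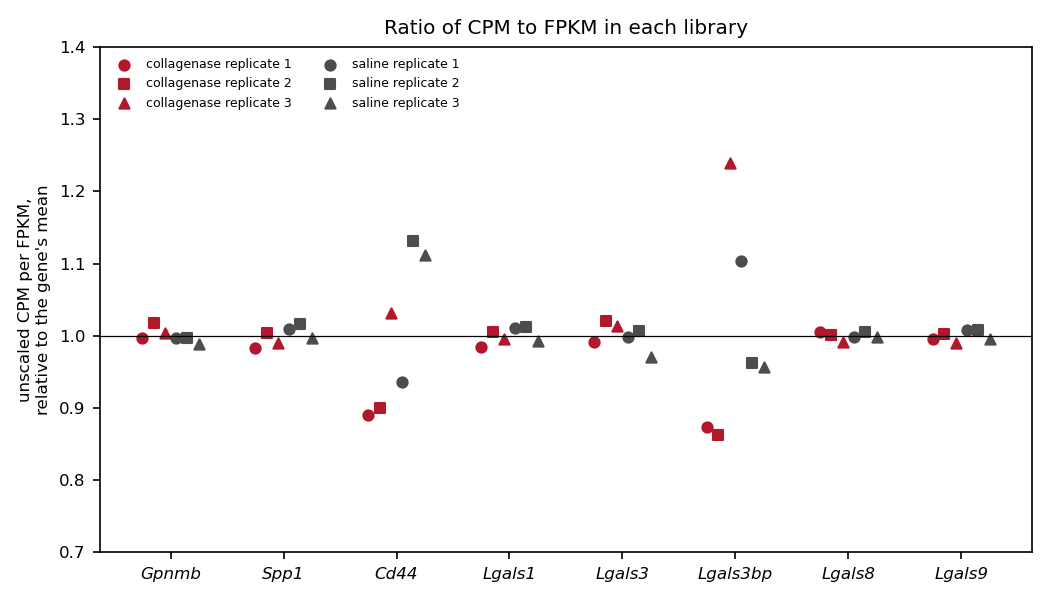
Unscaled CPM divided by deposited FPKM for each gene and library, relative to the gene's mean over the 6 libraries (collagenase red, saline grey). For 6 genes the points lie near 1, and for Cd44 and Lgals3bp they spread by 1.25-fold and 1.46-fold once each library's median ratio is divided out.

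By RefSeq's annotation of GRCm38.p6, 7 of the 8 genes matched promoter windows of 250 bases before and 50 after a start site, with 8 windows in all. Lgals1 was not matched. The windows were searched on both strands for TCATGTGA (the M-box of MITF-type factors), CATGTG (its core, so each M-box also counts here), CACGTG (the E-box of the same family), TGACTCA (the AP-1 motif), GAGGAAGT (a PU.1-type ETS motif) and GAAANNGAA (the core of interferon response elements). Over all 32851 windows these were found in 0.986%, 14.2%, 7.15%, 5.20%, 3.20% and 8.56% in that order. TGAGTCA is the reverse complement of TGACTCA and so marks the same places. The windows of Gpnmb, Spp1 and Lgals9 are shown because these genes had the largest rise, the highest level and the fall. Capitals mark the matches.
Gpnmb, chr6:49036268-49036567, plus strand: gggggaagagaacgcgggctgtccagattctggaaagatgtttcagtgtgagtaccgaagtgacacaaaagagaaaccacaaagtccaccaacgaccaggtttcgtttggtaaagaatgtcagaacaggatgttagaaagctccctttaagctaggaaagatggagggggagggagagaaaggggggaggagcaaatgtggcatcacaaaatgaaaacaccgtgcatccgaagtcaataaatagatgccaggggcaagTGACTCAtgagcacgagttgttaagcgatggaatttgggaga
Spp1, chr5:104434861-104435160, plus strand: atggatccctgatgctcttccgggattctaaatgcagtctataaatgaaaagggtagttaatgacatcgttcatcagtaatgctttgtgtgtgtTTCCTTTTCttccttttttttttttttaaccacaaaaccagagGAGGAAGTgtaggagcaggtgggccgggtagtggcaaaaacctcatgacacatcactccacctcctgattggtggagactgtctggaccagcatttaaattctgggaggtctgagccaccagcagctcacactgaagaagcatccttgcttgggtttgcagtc
Lgals9, chr11:78984875-78985174, minus strand: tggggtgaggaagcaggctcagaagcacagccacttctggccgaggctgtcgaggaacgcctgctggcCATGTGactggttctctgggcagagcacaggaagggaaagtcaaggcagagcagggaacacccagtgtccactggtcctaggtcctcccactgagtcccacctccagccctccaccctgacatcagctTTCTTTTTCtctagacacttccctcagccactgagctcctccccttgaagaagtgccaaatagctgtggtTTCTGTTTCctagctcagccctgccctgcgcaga

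The Gpnmb window held the AP-1 letters 8 bases past the start site and none of the M-box or E-box letters. The first Spp1 window held GAGGAAGT starting 113 bases and GAAANNGAA (on the reverse strand) starting 156 bases before the start site, and the second Spp1 window held none. The Lgals9 window held GAAANNGAA on the reverse strand at 2 places, 54 bases before and 16 bases after the start site, and CATGTG 182 bases before it. The Lgals3bp window held CATGTG 29 bases before the start site and, on the other strand, 41 bases after it. The windows of Cd44, Lgals3 and Lgals8 held none of these motifs. The Lgals3 window (47373610 to 47373909) and the Lgals8 window (12461689 to 12461988) lie inside the gene spans given above. The outer ends of those spans were thus not searched for these genes. A match describes letters in this window and is no evidence of binding.

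Genes known to act with the 8 were grouped in 11 lists by their roles, 97 genes in the files of which 88 were tested. The lists were chosen with earlier results of these data known, so their counts and p-values are a description. Of the 88 tested genes 8 rose, 9 fell and 71 did not pass. The share that passed was 19.3%, beside 2.41% of all features. Their median log2 fold change was 0.06, beside -0.02 over all features. The rises were spread over 4 lists, and the 9 falls were all on the list of interferon-stimulated genes. The number that passed was 17 with all libraries, but 7, 9 and 5 without collagenase replicate 2, collagenase replicate 3 and saline replicate 1. The number that rose was 5, 4 and 3 without collagenase replicate 1, collagenase replicate 2 and saline replicate 1. On 6 lists edgeR called 0 genes. Of these, the glycan enzymes and the MITF-type factors each had 1 gene at an unadjusted p under 0.05 and the other 4 lists had 0, while DESeq2 called 1 glycan enzyme, B4galt1, and 0 on the other lists, and limma on log2 FPKM called 0.

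**Figure D5:**
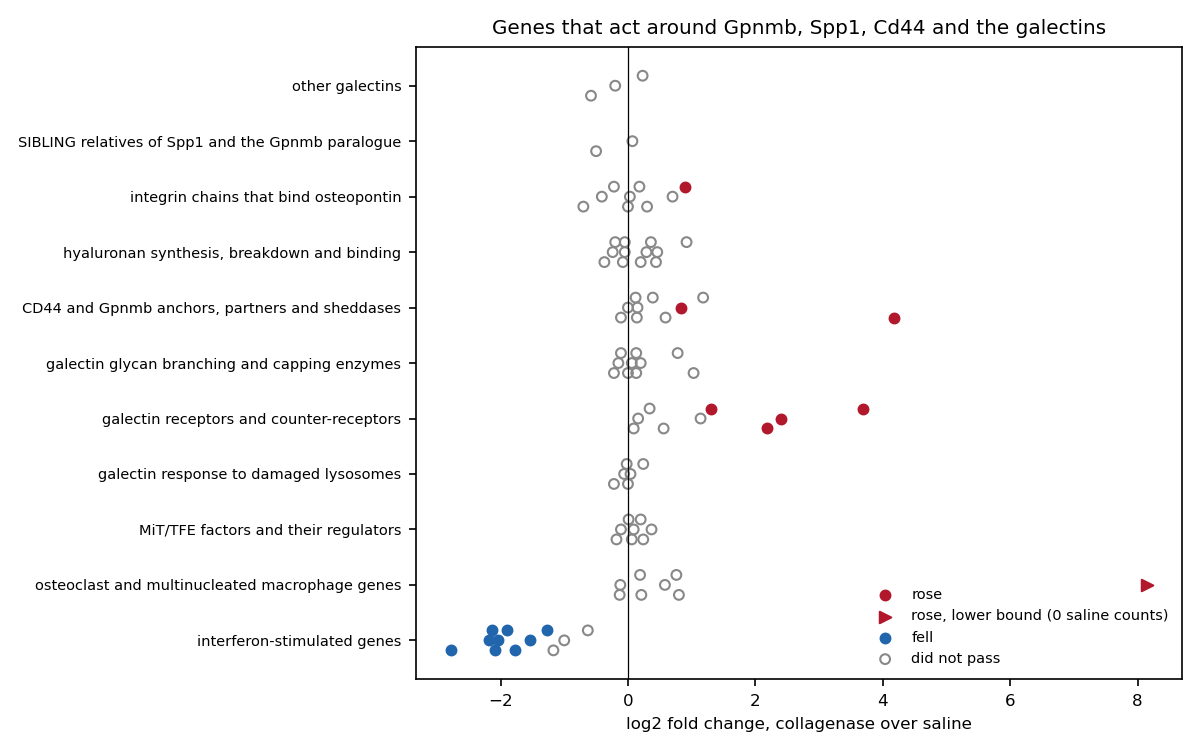
Fitted log2 fold change of collagenase over saline for the tested genes of 11 lists, filled where the edgeR adjusted p was under 0.05 (red rose, blue fell). The triangle is Atp6v0d2, drawn at its lower bound because it had 0 counts in saline libraries; Cd74, at 4.17 among the anchors and partners, and the galectin receptors lie to the right, and the interferon-stimulated genes to the left.

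The closest relatives of the 8 did not pass. Of 7 other galectins and galectin-like genes 6 were measured and 3 tested, and 0 passed. Lgalsl, a galectin-like gene and the most abundant of them, measured 71.4 ± 1.89 CPM in collagenase and 82.0 ± 6.26 CPM in saline libraries, and Lgals4, an intestinal galectin, 2.33 ± 0.359 CPM in collagenase and 1.98 ± 0.214 CPM in saline libraries. Lgals12 stood at 0.298 ± 0.105 CPM in collagenase and 0.456 ± 0.292 CPM in saline libraries. Of the bone matrix relatives of Spp1 and the Gpnmb paralogue Pmel, 2 of 5 were tested and 0 passed: Dmp1 measured 4.83 ± 0.969 and 4.61 ± 1.01 CPM and Pmel 0.626 ± 0.204 and 0.891 ± 0.322 CPM in collagenase and saline libraries.

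Among 9 integrin chains that bind osteopontin, Itgb5 rose and 8 did not pass. Itgb5, a partner of the alpha-v chain, measured 78.8 ± 13.8 CPM in collagenase and 42.3 ± 5.07 CPM in saline libraries, or 0.90 on the log2 scale (SE 0.15, edgeR adjusted p 0.0224). It passed in 3 of the 6 fits with 1 library removed, but not without collagenase replicate 1, collagenase replicate 2 or saline replicate 1. The alpha-v chain Itgav itself, the beta-1 chain Itgb1 and the integrin chain Itga4 measured 65.7 ± 14.4, 94.1 ± 10.4 and 11.7 ± 2.52 CPM in collagenase, against 64.5 ± 6.68, 82.8 ± 1.77 and 13.6 ± 2.72 CPM in saline libraries. Over the list the median of log2 fold changes was 0.03.

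Of 12 genes that make, cut or bind hyaluronan, the main ligand of CD44, 0 passed, with a median log2 fold change of 0.07. Tnfaip6, which links proteins to hyaluronan, measured 18.5 ± 2.21 CPM in collagenase and 19.6 ± 0.483 CPM in saline libraries. The hyaluronidases Cemip2 and Hyal2 measured 11.8 ± 1.34 and 11.3 ± 0.580 CPM in collagenase, against 9.24 ± 1.56 and 9.87 ± 0.517 CPM in saline libraries.

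Of 10 anchors, partners and sheddases of CD44 and Gpnmb, Cd74 and Msn rose and 8 did not pass. Cd74, the class II invariant chain, which pairs with CD44 in a cytokine receptor, was 4.17 higher on the log2 scale (SE 0.20, edgeR adjusted p 0.000224). Msn, moesin, measured 68.5 ± 7.07 CPM in collagenase and 38.6 ± 6.36 CPM in saline libraries, a difference of 0.83 on the log2 scale (SE 0.14, edgeR adjusted p 0.0234) that passed in 1 of the 6 fits with 1 library removed, the one without saline replicate 3. Other anchors did not pass: radixin (Rdx) and merlin (Nf2) measured 112.4 ± 14.5 and 97.2 ± 4.74 CPM in collagenase, against 121.3 ± 10.6 and 87.8 ± 6.17 CPM in saline libraries. Adam10, a protease that sheds Gpnmb and CD44, measured 69.4 ± 13.1 CPM in collagenase and 69.6 ± 4.62 CPM in saline libraries. The other proteases on the list, named with their values known, were Adam17, Mmp14 and Mmp9. They had log2 fold changes of 0.39, 0.59 and 1.18 and did not pass edgeR's test. DESeq2 called 4 of the 10, adding Mmp14 and Mmp9, and 5 of the 10 had an unadjusted edgeR p under 0.05.

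The list of galectin receptors and counter-receptors had 4 of 9 genes that rose and a median log2 fold change of 1.14. Havcr2, which encodes Tim-3, a receptor for galectin-9, measured 6.81 ± 1.04 CPM in collagenase and 2.74 ± 0.124 CPM in saline libraries, or 1.31 on the log2 scale (SE 0.19, edgeR adjusted p 0.0123). The receptor thus rose where its ligand gene Lgals9 was lower. Ptprc, the leukocyte phosphatase CD45, had a log2 fold change of 2.40 (SE 0.32, edgeR adjusted p 0.0100), Trem2, a lipid receptor of microglia, 2.19 (SE 0.18, edgeR adjusted p 0.00141) and Spn, the leukocyte sialoglycoprotein CD43, 3.69 (SE 0.76, edgeR adjusted p 0.0491). Of the 6 fits with 1 library removed, Spn passed in 1 (without saline replicate 3), Havcr2 in 4 (not without collagenase replicate 2 or saline replicate 1), Ptprc in 5 (not without saline replicate 1) and Trem2 in 6. Spn also missed the threshold in 4 of 8 other settings, over which its log2 fold change ran from 0.37 to 3.80. It had 10 counts over the saline group and 0 CPM in saline replicate 1, so the size of its rise is uncertain. The 4 genes that rose are genes of microglia and other leukocytes, whose summed markers are given above for each group. The part of cell numbers was not tested. Lamp1, Lrp1 and Lamp2, which are made by most cells of the tissue, measured 575.2 ± 46.7, 425.6 ± 32.7 and 131.5 ± 23.0 CPM in collagenase, against 540.8 ± 14.4, 335.8 ± 5.51 and 117.7 ± 15.2 CPM in saline libraries, and did not pass. DESeq2 called 7 of the 9, adding Lrp1, Itgam and Mertk.

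Enzymes that build or cap the sugars that galectins read showed 0 of 10 genes that passed and a median log2 fold change of 0.09. Mgat5, which adds the branch that galectin-3 prefers, measured 123.7 ± 14.8 CPM in collagenase and 133.7 ± 6.55 CPM in saline libraries. Mgat1, which starts complex glycans, measured 57.4 ± 0.796 and 55.2 ± 7.01 CPM, and the sialyltransferase St3gal4 40.7 ± 2.40 and 47.4 ± 5.65 CPM in collagenase and saline libraries. Of 6 tested genes of the galectin response to damaged lysosomes 0 passed. Chmp4b, Tax1bp1 and Pdcd6ip, parts of membrane repair and autophagy, measured 191.9 ± 11.7, 171.1 ± 4.84 and 106.6 ± 7.45 CPM in collagenase, against 194.6 ± 9.78, 178.1 ± 23.9 and 104.0 ± 9.12 CPM in saline libraries.

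MITF, TFEB and TFE3 are transcription factors known to drive Gpnmb, and of 8 tested genes of these factors and their regulators 0 passed, with a median log2 fold change of 0.08. By mean CPM over both groups, the most abundant of the list were the GTPase genes Rragc and Rragd, at 96.7 ± 6.08 and 63.6 ± 7.42 CPM in collagenase, against 90.6 ± 4.95 and 68.4 ± 6.50 CPM in saline libraries, and the GTPase regulator Fnip1, at 47.6 ± 7.26 CPM in collagenase and 54.0 ± 6.83 CPM in saline libraries. The factors themselves were picked for naming with their values known. Mitf had 13.2 ± 3.12 CPM in collagenase and 13.1 ± 1.43 CPM in saline libraries (log2 fold change 0.01). Tfeb had 17.8 ± 2.13 CPM in collagenase and 15.1 ± 1.12 CPM in saline libraries (0.24). Tfe3 had 41.6 ± 1.92 CPM in collagenase and 36.3 ± 6.06 CPM in saline libraries (0.20). RNA levels of these genes say nothing of the proteins' place in the cell, which is how they are known to be regulated.

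Of 8 tested genes that osteoclasts and multinucleated macrophages share with Gpnmb and Spp1, Atp6v0d2 rose and 7 did not pass, with a median log2 fold change of 0.39. Atp6v0d2, a subunit of the vesicular proton pump, measured 11.5, 5.91 and 4.22 CPM in collagenase replicates and had 0 counts in saline libraries. Against a floor of 3 counts over the saline group it was at least 284-fold higher (edgeR adjusted p 0.00451). Nfatc1 (a master factor of osteoclasts), Tnfrsf11a (the receptor RANK) and the protease Ctsk measured 10.7 ± 1.11, 8.81 ± 0.322 and 4.10 ± 0.0795 CPM in collagenase, against 7.19 ± 1.48, 9.64 ± 0.983 and 3.60 ± 1.33 CPM in saline libraries, and did not pass.

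Of 12 interferon-stimulated genes 9 fell and 3 did not pass, with a median log2 fold change of -1.84. Ifi44 had a log2 fold change of -2.78 (SE 0.24, edgeR adjusted p 0.00187), Ifit1 of -2.13 (SE 0.23, edgeR adjusted p 0.00408) and the ubiquitin-like modifier Isg15 of -2.08 (SE 0.30, edgeR adjusted p 0.0123). With 1 library removed, Isg15 passed in 3 of 6 fits (not without collagenase replicate 2, collagenase replicate 3 or saline replicate 1), and Ifi44 and Ifit1 passed in 6. Bst2 and Xaf1 did not pass, at 8.04 ± 3.85 and 7.50 ± 2.03 CPM in collagenase, against 18.2 ± 10.7 and 11.6 ± 1.82 CPM in saline libraries. Of the members known as interferon-inducible, Lgals9 thus lay on the side of this list, at -0.98, and Lgals3bp on the other, at 0.73.

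Over the 6 libraries the patterns most like each gene were ranked by Pearson's r of log2 CPM among 13209 annotated genes. The 6 points are the 2 groups and r ignores the size of a difference. A gene that differs between them, strongly or slightly, can thus score high, and r is given as a description. Gpnmb was most like Clec7a, Cd14 and Lag3 (r 0.9987, 0.9980 and 0.9978), Spp1 most like Pdgfrb, Grn and Bin2, and Cd44 most like Tnfaip2, Clec5a and Unc93b1. Pdgfrb itself had a log2 fold change of 0.34 and did not pass (edgeR adjusted p 0.163). Lgals3 was most like Cd84, Anpep and Cfp (r 0.9998, 0.9992 and 0.9982). Lgals1 was most like Mgst1, Myof and Crlf2, and Lgals3bp most like P2rx6, Aldh3b1 and Sfrp4. Lgals8 was most like Pgm2, Stk40 and Gimap6, with r from 0.9834 to 0.9952. Lgals9 was most like Ptk2b, Pcdhb20 and Ifi44, with r from 0.9878 to 0.9939.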

How the data were processed

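PolyA RNA of VPL/VPM tissue was sequenced in 6 samples, whose titles give the group and the replicate number. Per the file headers, the authors deposited the read count of each feature beside its FPKM. GRCm38, StringTie, HISAT2 2.2.1, DESeq2 and FastQC are listed in the submitters' processing notes, without their roles. The annotation release, the length behind FPKM, the strand setting and the handling of multi-mapped reads: not given in the sources used here. Lines of annotation text that had spilled over (10 to 30 per library) were skipped. Symbols came from a reference table by Ensembl identifier (22022 of 22036 matched) and positions from GENCODE M21.

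The test on counts was that of edgeR 4.0.16 under R 4.3.3 (filterByExpr, TMM factors of 0.898 to 1.06, robust quasi-likelihood F-test, two-sided, Benjamini-Hochberg adjustment over 17240 features, threshold 0.05), and the fit was tested on simulated data. SE and 95% intervals are from the fit, CPM is on the TMM scale, and log2 CPM used a prior count of 2. DESeq2 1.42.0 and limma 3.58.1 on log2 FPKM with pseudocounts of 0.1 and 1 were alternatives. Members and lists were chosen with earlier results of these data known. From each list, the genes that passed were named (where over 5 passed, the 3 of smallest p) with up to 3 of highest CPM that did not; 1 such gene is not reported here. Likeness was ranked among annotated genes with a mean log2 CPM of at least 1. Floors and counts cover counting error only, since PCR reads are not independent molecules. Protein sequences were not used here.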

Additional observations from a re-analysis of the deposited data

How the results depend on the processing

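The log2 fold change of each of the 8 genes kept its sign in each alternative run, and the median of the 8 ran from 1.13 to 1.49. With limma on log2(FPKM + 1) some log2 fold changes were smaller in size. They were 4.47 for Gpnmb, 1.18 for Cd44, 3.16 for Lgals3 and -0.81 for Lgals9. A pseudocount shrinks low values, and FPKM also lacks TMM scaling. Lgals9 stood at -0.89 by library totals alone and at -0.88 by limma with a pseudocount of 0.1. The part of each was not tested. Leaving out a library gave log2 fold changes of 6.08 to 6.72 for Gpnmb, 2.00 to 2.63 for Spp1, 1.43 to 1.71 for Cd44, 0.74 to 1.45 for Lgals1, 3.75 to 4.43 for Lgals3, 0.43 to 0.92 for Lgals3bp, 0.13 to 0.28 for Lgals8 and -1.05 to -0.92 for Lgals9. DESeq2 called 7 of the 8, adding Lgals1 and Lgals3bp, and leaving out a library gave 3 to 5 (3 to 4 higher). Over all features the count of 416 called (366 higher, 50 lower) became 788 with DESeq2 (608 higher, 180 lower), and 85 to 917 without a library (81 to 503 higher, 4 to 414 lower). The number lower was 29 by library totals alone and 24 by limma with either pseudocount; apart from the removed libraries, the cause was not tested. Of the genes around the 8, DESeq2 called 24 (14 higher, 10 lower), and leaving out a library gave 5 to 20 (3 to 12 higher, 2 to 10 lower). The labels do not say whether same-numbered samples of the groups are paired. Deviations from the group means correlated at 0.0439, 0.107 and 0.203 between same-numbered samples. Collagenase replicate 1 correlated best with saline replicate 2 (0.0759), and collagenase replicates 2 and 3 with the saline replicate of their own number. With 3 libraries per group these values cannot decide whether the samples are paired. With the replicate number as a block the count was 302 (252 higher, 50 lower), with 5 of the 8 and 17 of the genes around them called.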

Other observations

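Cd4, a marker of helper T cells that some macrophages also express, measured 2.94, 0.565 and 0.622 CPM in collagenase replicates 1, 2 and 3, against 0.608, 0.378 and 13.1 CPM in saline replicates. The value of saline replicate 3 stood alone: Cd3d, Cd3e, Cd3g, Cd8a and Nkg7 were at 0 counts in each saline library. B3gnt2, an enzyme that extends the sugar chains galectins bind, was spread widely in each group, at 27.1, 19.9 and 5.29 CPM in collagenase replicates and 5.81, 17.9 and 6.86 CPM in saline replicates, and did not pass the edgeR test (adjusted p 0.757). Both were chosen after their values were seen.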
